A study of Homo sapiens with 56 samples.

Results

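PEO4 is an established cell line from a high-grade serous ovarian cancer, and PEO1 is the other line of the study. The arrays described here are the 4 of PEO4 cells given vehicle for 3 h and the 4 of PEO4 cells taken at 0 h, which are 8 of 56 arrays in the series. The groups were taken from the titles. Before either harvest all cells, in every group, had spent 3 days without hormone in phenol-red-free IMEM medium with 10% charcoal-stripped serum. The vehicle was ethanol. It served as the control for estradiol (E2), for ICI (an antagonist that degrades the estrogen receptor), for 4-hydroxytamoxifen (4OHT, written Tam in the titles) and for the antagonists with E2, which make up the other 5 PEO4 groups of 4 arrays. The comparison of vehicle with 0 h asks what changed over those 3 h without any drug. Ethanol, handling and the passing of time were applied together, so they cannot be told apart. The labels do not say whether the 4 replicates of a group were separate cultures. The p-values of this comparison measure only the spread between arrays within a group, pooled over all 7 PEO4 groups. Each line is a single line and stands for no other tumour.

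When medium or treatment is added to resting cultures, cells commonly pass through a short wave of gene activity. Immediate early genes such as FOS and EGR1 are switched on within minutes by kinase signalling and serum response factor (SRF), and they are switched off again as feedback inhibitors of the MAP kinase pathway build up. Stretch, adhesion and lysophospholipids act on YAP and SRF and turn on CCN1 and CCN2, and NF-kB turns on chemokines along with its own inhibitors. TXNIP follows glucose supply, while DDIT4 and FOXO target genes such as CCNG2 are high when growth factors or nutrients are short. In ovarian cancer cells that carry estrogen receptor alpha, GREB1 and PGR are common readouts of that receptor.

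Markers of the labelled tumour type were high in both groups. Of 17 measured ovarian carcinoma and Muellerian markers, 15 lay in the upper 50% of all genes, with SOX17 and MUC1 as the exceptions, and the summed log2 level of the list was 185 to 188 on vehicle arrays and 187 to 188 on 0 h arrays. All 10 measured leukocyte and endothelial markers lay in the lowest 40% of genes. In the upper 50% lay 4 of 14 mesenchymal and stromal markers and 2 of 12 hepatocyte and neural markers. 2 PEO4 arrays stood apart the most, 1 of them in this comparison. On 0 h replicate 4, the 3′ probe set of ACTB exceeded its 5′ probe set by 2.28 on the log2 scale, against 0.24 to 0.57 on the vehicle arrays and 0.50 to 0.64 on the other 0 h arrays, a sign of poorer RNA quality. That array correlated with the other 0 h arrays at r = 0.9956 to 0.9960. The highest correlation of each of those 3 within the group was 0.9986 to 0.9988, and the vehicle arrays correlated at 0.9981 to 0.9986. Replicate 4 was the farthest of the 4 from the 0 h mean for 49.5% of genes. ICI replicate 1, which enters the fit only through the shared estimate of the spread, had a larger ACTB value of 3.41 and correlated with its group at r = 0.9923 to 0.9939. Of 128 called genes of the lists and of the largest changes, 114 kept their call without 0 h replicate 4, 122 without both arrays, 128 without ICI replicate 1 and 126 with the ACTB 3′ minus 5′ value as a covariate. Their differences moved by a median of 0.034 and at most 0.14 (CXCL8) without 0 h replicate 4. The 14 genes that lost their call then are named with their lists, and the counts of each list are given with and without that array where they differ. Replicate 4 of 4OHT with E2 also had a raised ACTB value, 1.74, though its GAPDH 3′ minus 5′ value was 0.065. It correlated with its group at r = 0.9966 to 0.9980 and was not left out singly.

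The 3 h of vehicle changed many PEO4 genes, most of them by little. Of 11963 genes tested, 754 (6.3%) passed an adjusted p of 0.05 (limma, Benjamini-Hochberg over all genes), 447 (3.74%) higher with vehicle and 307 (2.57%) lower. The median size of a called difference was 0.29 on the log2 scale and the smallest was 0.12, beside a median standard error of 0.071 over all genes and a median difference of -0.02. Only 53 genes were called higher and 7 lower by at least 1.5-fold, and 5 were higher and 4 lower by at least 2-fold. All 4 vehicle arrays lay above all 4 0 h arrays for 747 genes (6.24%) and below them for 862 (7.21%), and without 0 h replicate 4 this held for 1336 (11.2%) and 1127 (9.42%).

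Without 0 h replicate 4, 658 genes (5.5%) were called, 455 (3.8%) higher and 203 (1.7%) lower. Of the 754 calls, 557 (73.9%) were kept in the same direction, 197 were lost and 0 turned, and 101 genes gained a call. The rises and the falls were kept unequally, with 188 of 307 lower calls (61.2%) and 369 of 447 higher calls (82.6%) kept. All 30 genes with the largest rises and falls kept their call. Without ICI replicate 1 alone all 754 calls were kept and 1019 genes were called (579 higher, 440 lower). Without both arrays 894 were called (611 higher, 283 lower), 653 of the 754 among them. The plot of differences with and without 0 h replicate 4 shows the large changes close to the diagonal.

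**Figure D1:**
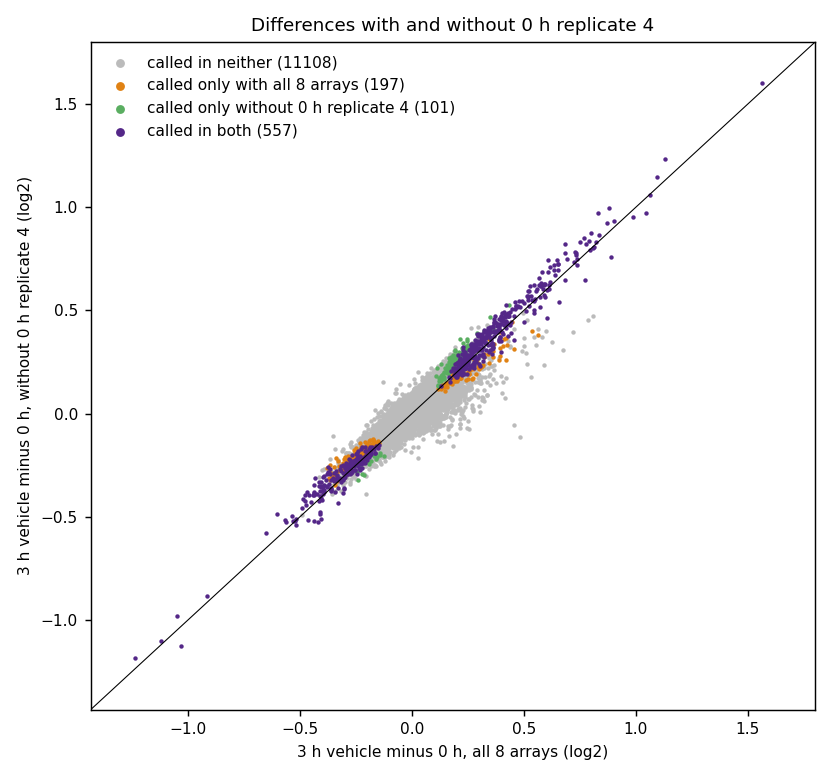
Each point is 1 of 11963 genes, with the log2 difference of 3 h vehicle minus 0 h over all 8 arrays on the horizontal axis and the same difference without 0 h replicate 4 on the vertical axis. Colours mark the 557 genes called in both, the 197 called only with all arrays and the 101 called only without that array, and the line marks equal values.

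The largest rise was that of THBS1, which encodes thrombospondin-1, a secreted matrix glycoprotein that can activate latent TGF-beta. Its log2 level was 10.16, 10.14, 10.26 and 10.19 on the vehicle arrays, against 8.48, 8.46, 8.81 and 8.74 on the 0 h arrays. The groups lay far apart, with every vehicle array more than the whole spread of the 0 h group above it. The means were 10.19 ± 0.05 with vehicle and 8.62 ± 0.18 at 0 h (SD, n = 4 each), a difference of 1.56 ± 0.10 (SE) or 2.96-fold (limma, adjusted p = 9.59e-12), and 1.60 without 0 h replicate 4. Its 5 probe sets differed widely, between -0.06 and 2.00, and 3 of them were called, all higher.

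DKK1, a secreted inhibitor of Wnt signalling, had log2 levels of 9.13, 9.34, 9.16 and 9.00 with vehicle and 7.89, 8.01, 8.13 and 8.22 at 0 h. The lowest vehicle array stood clear of the highest 0 h array. The difference was 1.09 ± 0.09 (limma, adjusted p = 4.91e-09), and 1.15 without 0 h replicate 4. CYP1B1, a cytochrome P450 that hydroxylates estradiol and polycyclic hydrocarbons and is induced through the aryl hydrocarbon receptor, measured 11.13, 11.46, 11.29 and 11.18 with vehicle and 10.18, 10.17, 10.26 and 10.20 at 0 h. Here the 0 h arrays were nearly alike and the vehicle arrays varied more, but the groups did not overlap. The difference was 1.06 ± 0.07 (limma, adjusted p = 1.09e-11), and the same to 2 decimals without 0 h replicate 4.

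The other members of the 5 genes that were at least 2-fold higher were LINC00472, a long non-coding RNA, with a difference of 1.13 ± 0.11 (1.23 without 0 h replicate 4), and BAMBI, a decoy receptor that dampens TGF-beta and BMP signals, with 1.05 ± 0.09 (0.97 without it). Among the next largest rises were RGCC, a regulator of the cell cycle (0.99), PMEPA1, a membrane adaptor induced by TGF-beta that restrains SMAD proteins (0.90), the tight junction gene CLDN1 (0.89), the oxysterol receptor GPR183 (0.88) and PDE4D, a phosphodiesterase that degrades cyclic AMP (0.87). GBP1, an interferon-inducible GTPase, followed with 0.84, then the chemokines CXCL8 (0.83) and CXCL2 (0.82), the zinc finger gene HIVEP1 (0.81) and the dual-specificity phosphatase gene DUSP14 (0.81). RGCC was low, at 5.40 with vehicle and 4.41 at 0 h, on arrays whose values run from 2.178 to 14.331. All 15 rises kept their call when any 1 of the 8 arrays was left out. The second probe set of CXCL8 gave 0.40 and was not called. Also not called was 1 set each of CYP1B1 (0.17) and PDE4D (-0.13). The other sets of CYP1B1, PDE4D and GBP1 were called higher.

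The largest fall was that of EGR1, an immediate early zinc finger transcription factor. Its log2 level was 9.20, 9.25, 9.32 and 9.37 on the vehicle arrays, against 10.47, 10.55, 10.39 and 10.66 on the 0 h arrays. The groups did not come near each other. The means were 9.28 ± 0.07 with vehicle and 10.52 ± 0.12 at 0 h (SD, n = 4 each), a difference of -1.24 ± 0.10, so that the level was 2.35-fold lower with vehicle (limma, adjusted p = 3.34e-09), and -1.19 without 0 h replicate 4.

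DDIT4 encodes REDD1, an inhibitor of the growth kinase mTORC1 that is induced by hypoxia, starvation and other stress. It measured 10.40, 10.31, 10.43 and 10.54 with vehicle and 11.59, 11.56, 11.43 and 11.59 at 0 h. Every vehicle array was below every 0 h array, and the difference was -1.12 ± 0.06 (limma, adjusted p = 3.82e-12), and -1.10 without 0 h replicate 4. DEPP1, a FOXO target, measured 7.79, 7.95, 7.67 and 7.61 with vehicle and 8.78, 8.83, 8.60 and 9.01 at 0 h, a difference of -1.05 ± 0.09 (-0.98 without 0 h replicate 4). ELF3, an epithelial transcription factor of the ETS family, measured 8.68, 8.45, 8.53 and 8.52 with vehicle and 9.74, 9.75, 9.54 and 9.30 at 0 h, a difference of -1.03 ± 0.09 (-1.13 without 0 h replicate 4). Both were without overlap, and for ELF3 the lowest 0 h value was that of replicate 4. The second probe set of ELF3 gave -1.11, while that of DEPP1 gave -0.09 and was not called.

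The remaining large falls were smaller. They were those of FRMD4B (-0.91), PLCXD1 (-0.65), C11orf21 (-0.60), ZNF750, an epithelial differentiation factor (-0.57), CCNG2, an atypical cyclin and FOXO target (-0.56), PPFIA4 (-0.54), the transcription factor SOX9 (-0.53), TXNIP, an inhibitor of thioredoxin and of glucose uptake (-0.52), the Notch target and repressor HES1 (-0.52), the neuronal splicing factor NOVA1 (-0.52) and the mitotic spindle gene PSRC1 (-0.49). TXNIP had the tightest groups of these, with 11.14, 11.13, 11.15 and 11.16 on vehicle arrays against 11.66, 11.69, 11.64 and 11.67 on 0 h arrays. All 15 falls kept their call when any 1 of the 8 arrays was left out. With the mean of a gene's probe sets in place of the brightest, CCNG2 was not called. The other probe sets of FRMD4B (-0.02 and -0.10) and NOVA1 (-0.08) were not called. Nor was 1 set each of HES1 (-0.13), TXNIP (-0.35) and CCNG2 (0.21). The remaining sets of HES1, TXNIP and CCNG2 and the second set of SOX9 were called lower.

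**Figure D2:**
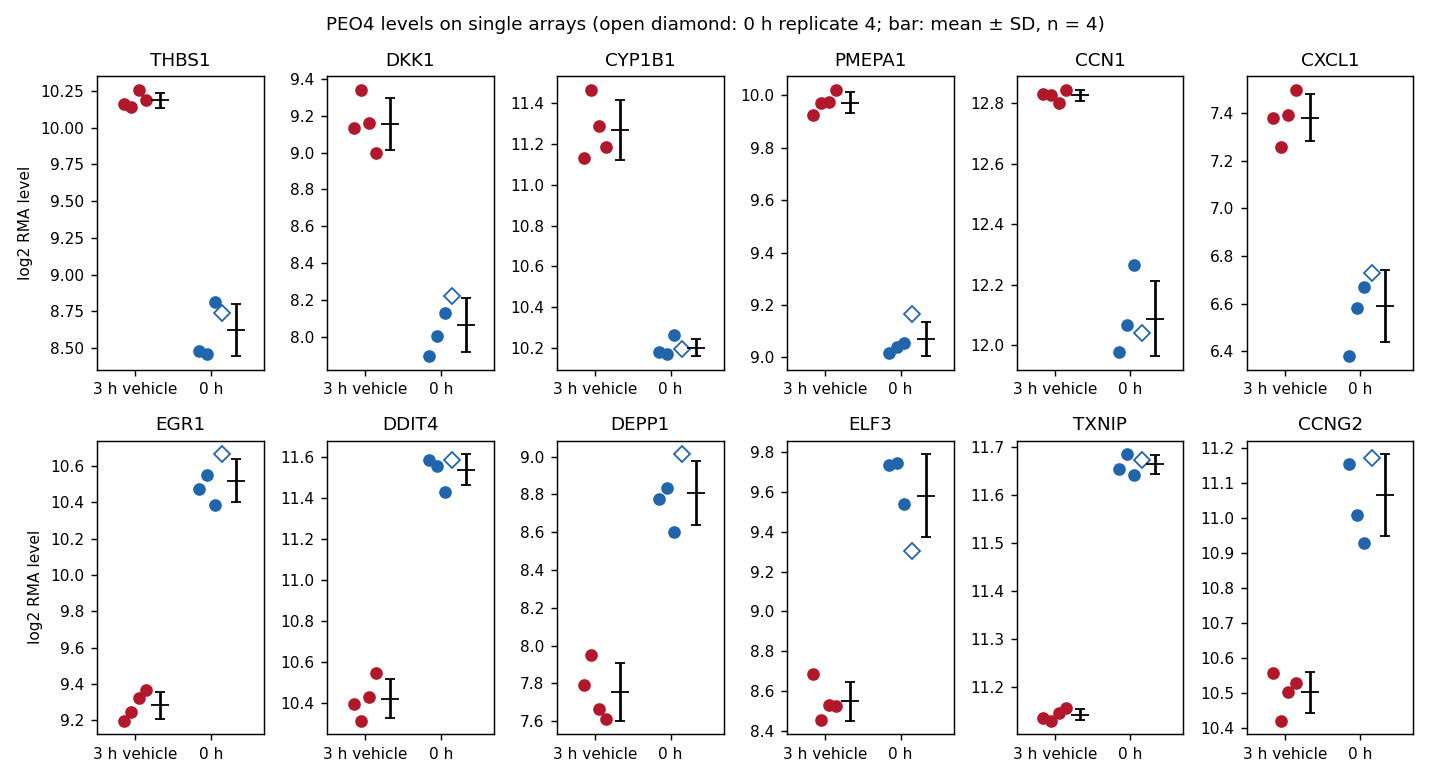
Each panel shows the log2 RMA level of 1 gene on the 4 PEO4 vehicle arrays, left, and the 4 0 h arrays, right, with the mean and SD (n = 4) beside the points. The open diamond is 0 h replicate 4, and the vertical axes differ between panels and do not start at 0. In every panel the 2 groups are apart, with vehicle above 0 h in the upper row and below it in the lower row.

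The promoters of the protein-coding genes with the largest rises and falls are shown because these genes carry the comparison, THBS1 and DKK1 upward and EGR1 and DDIT4 downward. Each is the 250 bases before the gene's start in RefSeq (GRCh38.p14), 5′ to 3′ on the gene's plus strand, at chr15:39580829-39581078, chr10:52314031-52314280, chr5:138465229-138465478 and chr10:72273674-72273923. Capitals mark every match to the motifs searched on both strands.
THBS1: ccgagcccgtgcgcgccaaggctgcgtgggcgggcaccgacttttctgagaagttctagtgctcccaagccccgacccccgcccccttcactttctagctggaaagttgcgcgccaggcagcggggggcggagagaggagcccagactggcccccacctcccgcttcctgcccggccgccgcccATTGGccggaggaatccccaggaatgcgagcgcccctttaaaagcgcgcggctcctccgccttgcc
DKK1: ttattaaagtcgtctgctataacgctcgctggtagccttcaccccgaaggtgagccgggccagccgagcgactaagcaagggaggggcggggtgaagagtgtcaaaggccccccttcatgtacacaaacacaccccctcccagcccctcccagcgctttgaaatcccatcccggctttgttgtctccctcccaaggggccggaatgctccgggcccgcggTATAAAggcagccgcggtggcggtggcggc
EGR1: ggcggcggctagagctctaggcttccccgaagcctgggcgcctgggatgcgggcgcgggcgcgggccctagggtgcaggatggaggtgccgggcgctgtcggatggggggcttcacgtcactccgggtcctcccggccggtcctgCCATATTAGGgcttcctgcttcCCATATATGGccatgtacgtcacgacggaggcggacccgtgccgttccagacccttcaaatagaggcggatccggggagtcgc
DDIT4: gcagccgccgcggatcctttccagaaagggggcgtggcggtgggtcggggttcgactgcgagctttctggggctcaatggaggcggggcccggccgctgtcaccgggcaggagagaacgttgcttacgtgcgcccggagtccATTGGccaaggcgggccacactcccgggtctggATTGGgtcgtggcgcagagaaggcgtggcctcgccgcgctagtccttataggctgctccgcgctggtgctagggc
The capitals in EGR1 are 2 serum response elements, searched as that motif by name. THBS1 has 1 CCAAT box and DDIT4 has 2, all read as ATTGG on the strand printed, and DKK1 has 1 TATA box (TATAAA) that begins 30 bases before the start. A serum response element was found in 1.16% of 35116 promoters of the same length, CCAAT in 32.0% and TATAAA in 10.7%. The E-box CACGTG (6.34% of promoters), the cyclic AMP response element TGACGTCA (1.65%), the AP-1 site TGANTCA (6.57%) and the ATF4 element TGATGNAA (3.14%) were not in these 4 windows. Of the 15 largest rises 13 had an entry, and of the 15 largest falls 13. A serum response element was in 2 of the 13 rises (GPR183 and GBP1) and 1 of the 13 falls (EGR1), and CCAAT in 3 rises and 7 falls. CYP1B1, HIVEP1, ZNF750 and SOX9 are named only. These matches are descriptions of letters and show no binding.

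The gene lists were chosen with earlier results of these data known, so their counts are descriptions and not tests. Most listed genes turned on through YAP and SRF were called higher with vehicle. Of 15 measured members 11 were called higher and 0 lower, beside 3.74% and 2.57% of all genes, and the median difference was 0.25, against -0.02 over all genes. CCN1, a secreted matricellular protein and classic YAP target, measured 12.83, 12.83, 12.80 and 12.84 with vehicle and 11.98, 12.07, 12.27 and 12.04 at 0 h. The vehicle arrays were almost equal, and all lay above the 0 h arrays, with a difference of 0.74 ± 0.06 (limma, adjusted p = 1.06e-09). CCN2, its close relative, measured 11.96, 11.99, 11.99 and 11.94 with vehicle and 11.25, 11.30, 11.41 and 10.82 at 0 h. Its lowest value was on 0 h replicate 4, and the difference was 0.77 with all arrays and 0.65 without that one. ANKRD1, a nuclear cofactor of muscle and a YAP target, rose by 0.75 ± 0.10, and SRF itself rose by 0.48 ± 0.06.

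The other called members were tissue factor (F3, 0.36), the contractile and adhesion genes ACTA2 (0.24), MYL9 (0.27), VCL (0.17) and FHL2 (0.24), the YAP inhibitor AMOTL2 (0.25) and the receptor kinase AXL (0.25). AXL lost its call without any 1 of 4 arrays and MYL9 without any 1 of 2, both at the highest adjusted p without 0 h replicate 4 (0.0843 and 0.0562). ACTA2 lost its call without 6 of the 8 arrays taken singly, and with the mean of its probe sets. Leaving out 1 array at a time left 8 to 10 members called higher and 0 lower, with 9 without 0 h replicate 4.

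NF-kB targets and cytokines were the other list with most members higher. Of 20 measured members 12 were called higher and 0 lower, beside 3.74% and 2.57% of all genes, with a median difference of 0.41. The chemokine CXCL1 measured 7.38, 7.26, 7.39 and 7.50 with vehicle and 6.38, 6.58, 6.67 and 6.73 at 0 h. CXCL8 measured 6.96, 6.66, 6.99 and 6.83 with vehicle and 5.67, 5.78, 6.23 and 6.46 at 0 h. Both groups of arrays were apart for these neutrophil attractants, with 0 h replicate 4 the nearest to the vehicle arrays. CXCL1 differed by 0.79 ± 0.10 (limma, adjusted p = 3.5e-06) and CXCL8 by 0.83 ± 0.16 (adjusted p = 0.00119), or by 0.84 and 0.97 without that array.

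TNFAIP3, which encodes A20, an inhibitor of NF-kB that is also its target, rose by 0.65 ± 0.06 with no overlap between the groups. The adhesion molecule gene ICAM1 rose by 0.68 ± 0.08 and the cytokine gene IL6 by 0.58 ± 0.08. The inhibitors NFKBIA (0.30) and NFKBIE (0.52), the subunits RELB (0.41) and NFKB2 (0.41), the cytokine LIF (0.40) and the survival gene BCL2A1 (0.64) were called too. NFKB2 lost its call without 7 of the 8 arrays taken singly (adjusted p up to 0.127, without 0 h replicate 4), and RELB had groups that overlapped. Leaving out 1 array at a time left 11 or 12 members called higher, with 11 without 0 h replicate 4. Several levels here were low on the scale of these arrays, which runs from 2.178 to 14.331, and RMA values give no detection call.

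**Figure D3:**
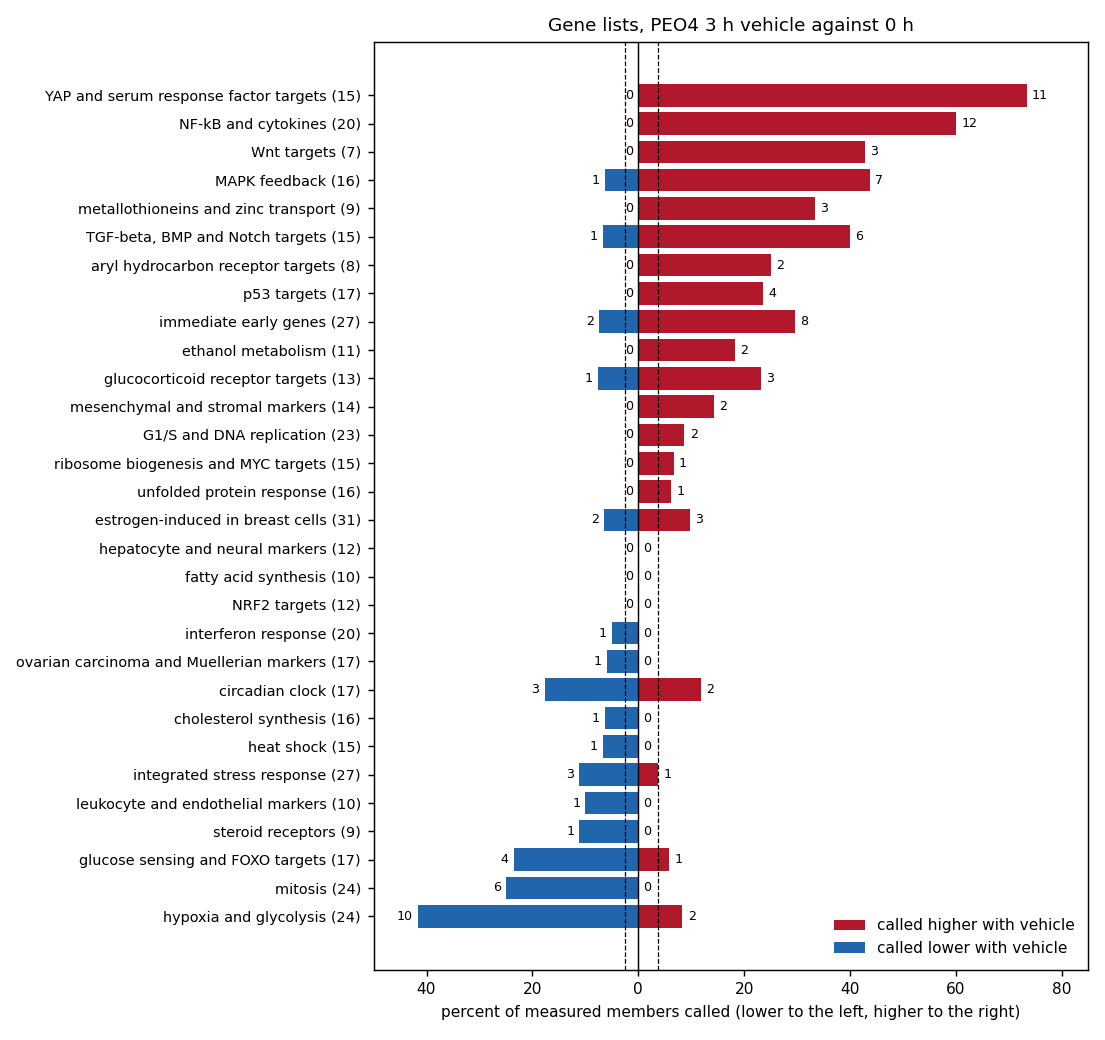
For each of 30 gene lists, with the number of measured members in brackets, the bars give the percent of members called higher with vehicle (right, red) and lower (left, blue), and the figures at their ends give the counts. Dashed lines mark the share of all genes called, 3.74% higher and 2.57% lower.

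Targets of TGF-beta, BMP and Notch had 6 of 15 measured members called higher and 1 lower, with a median of 0.14. The shares over all genes were 3.74% and 2.57%. Beside BAMBI and PMEPA1 the members called higher were the Notch ligand JAG1 (0.58), the ligand BMP4 (0.32) and the HLH inhibitors ID3 (0.40) and ID2 (0.26). PMEPA1 measured 9.93, 9.97, 9.97 and 10.02 with vehicle and 9.02, 9.04, 9.06 and 9.16 at 0 h, so the groups were well apart. HES1, the Notch target in the list, was the one that fell. ID2 lost its call without any 1 of 3 arrays (adjusted p up to 0.0813, without vehicle replicate 1). Of 7 measured Wnt targets, DKK1, the receptor FZD7 (0.26) and MYC (0.32) were called higher and 0 lower. FZD7 lost its call without vehicle replicate 4 (adjusted p = 0.0538), which left 1 member of that list called, and 2 were called without 0 h replicate 4.

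The immediate early genes went in both directions. Of 27 measured members 8 were called higher and 2 lower, beside 3.74% and 2.57% of all genes, with a median of 0.11. FOS fell with EGR1. It measured 8.02, 8.06, 8.04 and 8.10 with vehicle and 8.49, 8.63, 8.62 and 8.15 at 0 h, so that 0 h replicate 4 was close to the vehicle arrays and the other 0 h arrays were not. The difference was -0.42 ± 0.11 with all arrays (limma, adjusted p = 0.0183) and -0.53 without replicate 4 (adjusted p = 0.00226). The call was lost without any 1 of the other 3 0 h arrays, over a range of 5.34e-05 to 0.074 across all alternatives, the highest without 0 h replicate 2. FOSL1, a FOS relative that accumulates later, was higher by 0.46 ± 0.12, and the nuclear receptor gene NR4A3 by 0.61 ± 0.15. Each lost its call without 0 h replicate 1 (adjusted p = 0.0573 and 0.0558).

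The other members called higher were CCN1, CCN2 and SRF, the apoptosis regulator IER3 (0.52), MYC (0.32) and ZFP36 (0.18), which encodes a protein that destabilises cytokine mRNAs. MYC lost its call without 7 of the 8 arrays taken singly (adjusted p up to 0.131, without 0 h replicate 4) and ZFP36 without 6 of them (up to 0.114, without vehicle replicate 4). Leaving out 1 array at a time left 4 to 8 members called higher, with 4 when 0 h replicate 1 was out and 6 when 0 h replicate 4 was, and 1 or 2 lower.

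Feedback inhibitors and readouts of the MAP kinase pathway had 7 of 16 measured members called higher and 1 lower, with a median of 0.17. The shares over all genes were 3.74% and 2.57%. DUSP4, a nuclear phosphatase for ERK, measured 7.73, 7.78, 7.93 and 7.91 with vehicle and 6.93, 7.13, 7.10 and 7.28 at 0 h, without overlap, a difference of 0.73 ± 0.11. The receptor signalling inhibitors SPRY2 (0.51) and SPRY4 (0.42) and PHLDA1 (0.36) were higher as well. DUSP6, a cytoplasmic ERK phosphatase, was lower by 0.25 on the log2 scale. DUSP5 (0.22), DUSP7 (0.24), ETV5 (0.26) and DUSP6 each lost their call without at least 3 of the 8 arrays taken singly, and DUSP5 did so without 0 h replicate 4 (adjusted p = 0.174). Leaving out 1 array left 4 to 7 members called higher, with 7 without 0 h replicate 4.

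Genes of hypoxia and glycolysis were the list with most members lower. Of 24 measured members 10 were called lower and 2 higher, beside 2.57% and 3.74% of all genes, with a median of -0.14. The angiogenic growth factor gene VEGFA measured 11.38, 11.22, 11.37 and 11.37 with vehicle and 11.76, 11.60, 11.78 and 11.78 at 0 h, which did not overlap. Its difference was -0.39 (limma, adjusted p = 0.000413), and it was not called with the mean of its probe sets. MXI1, an antagonist of MYC, and KDM3A, a histone demethylase induced by hypoxia, fell by 0.39 and 0.34 on the log2 scale. The secreted lipase inhibitor ANGPTL4 fell by 0.44 and the glycolytic enzyme ENO2 by 0.36.

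The rest of the lower members were PFKFB3 and PFKFB4, which make the activator of phosphofructokinase (-0.27 and -0.24), hexokinase 2 (HK2, -0.24), the mitophagy gene BNIP3 (-0.26) and the collagen hydroxylase P4HA1 (-0.24). The members that went the other way were SLC2A3, the glucose transporter GLUT3, with 0.59 ± 0.07, and LOX, which crosslinks collagen, with 0.39 ± 0.06. SLC2A3 measured 8.97, 9.00, 8.99 and 8.91 with vehicle and 8.22, 8.35, 8.48 and 8.48 at 0 h. PFKFB3 lost its call without any 1 of 2 arrays (adjusted p up to 0.0786, without 0 h replicate 4), and PFKFB4 without any 1 of 4 (up to 0.0959, without vehicle replicate 4). HK2 was not called with the mean of its probe sets. Leaving out 1 array left 9 or 10 lower and 2 higher, with 9 lower without 0 h replicate 4.

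The list of glucose sensing and FOXO targets had 4 of 17 measured members called lower and 1 higher, with a median of -0.12. Among all genes 2.57% were called lower and 3.74% higher. Beside TXNIP and CCNG2, the growth factor receptor ERBB3 fell by 0.41 on the log2 scale, with 9.99, 9.93, 9.95 and 10.01 on vehicle arrays and 10.43, 10.38, 10.30 and 10.41 on 0 h arrays, and the repressor BCL6 fell by 0.32. BCL6 was not called with the mean of its probe sets. IRS2, an adaptor of the insulin receptor, was called higher by 0.12, and lost that call without 7 of the 8 arrays taken singly, 0 h replicate 4 among them. In the integrated stress response DDIT4, the transcription factor CEBPB (-0.30) and the lipoprotein receptor VLDLR (-0.40) were called lower and CEBPG (0.20) higher, of 27 measured, and the median was 0.00. The other 23 measured members of that list did not pass the test.

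Clock genes were called in both directions, 2 higher and 3 lower of 17, beside 3.74% and 2.57% of all genes. PER2, a repressor of the clock, measured 10.01, 9.92, 10.08 and 10.17 with vehicle and 9.48, 9.52, 9.51 and 9.71 at 0 h, a difference of 0.49 ± 0.06 (limma, adjusted p = 5.46e-06), and 0.54 without 0 h replicate 4. The groups were apart. CRY1, its partner, rose by 0.34, a call lost without 0 h replicate 1 (adjusted p = 0.0508). The transcriptional repressors BHLHE40 and BHLHE41 fell by 0.41 and 0.42 on the log2 scale and the activator BMAL1 by 0.29. With the mean of their probe sets BHLHE40 and BMAL1 were not called, since the dimmer set of each gave 0.14 and 0.12.

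The called genes of mitosis were all lower, and those of G1/S entry all higher. Of 24 measured mitosis genes 6 were called lower, 0 higher and 18 not called, beside 2.57% lower and 3.74% higher of all genes. The median of the list was -0.12. The spindle kinesin KIF20A (-0.21), the checkpoint kinases BUB1B (-0.24) and TTK (-0.28), the kinase AURKA (-0.28), TOP2A (-0.23) and ASPM (-0.19) made up the 6. TOP2A lost its call without any 1 of the 8 arrays, ASPM without 4 of them, and AURKA only with the mean of its probe sets. With 1 array left out 4 to 6 were called lower, with 6 without 0 h replicate 4. Among 23 genes of G1/S and DNA replication, CCNE1 (cyclin E1, 0.32) and CDC25A (0.28), a phosphatase that activates its kinase partner, were called higher and 0 lower, with a median of -0.04. CDC25A lost its call without 6 of the 8 arrays taken singly, and its groups overlapped.

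Genes of estrogen signalling were followed because vehicle is the control for estradiol in this study. ESR1, which encodes estrogen receptor alpha, measured 11.71, 11.57, 11.69 and 11.68 with vehicle and 11.93, 11.86, 11.87 and 12.10 at 0 h. The groups did not overlap, and the means were 11.66 ± 0.06 with vehicle and 11.94 ± 0.11 at 0 h (SD, n = 4 each), a difference of -0.28 ± 0.06 (limma, adjusted p = 0.0019). Without 0 h replicate 4 it was -0.22 (adjusted p = 0.0118). Of the 9 ESR1 probe sets only the brightest was called, the others lay between -0.12 and 0.31, and with their mean the gene was not called (adjusted p = 0.91), so that the adjusted p over all alternatives ran from 0.000524 to 0.91.

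GREB1, an estrogen-induced cofactor of the receptor, measured 8.64, 8.40, 8.34 and 8.65 with vehicle and 8.89, 8.69, 8.86 and 9.24 at 0 h. Its vehicle arrays were all below its 0 h arrays, with 0 h replicate 4 the highest, but the difference of -0.41 ± 0.13 did not pass (limma, adjusted p = 0.0502), nor did -0.31 without replicate 4 (adjusted p = 0.208). Over all alternatives its adjusted p ran from 0.0135 to 0.208. PGR, the progesterone receptor gene, lay at 3.89 ± 0.14 with vehicle and 3.85 ± 0.05 at 0 h, near the foot of the scale, and was not called (0.04 ± 0.08, adjusted p = 0.824). IGFBP3, a binding protein of insulin-like growth factors that estrogen lowers in breast cancer cells, rose by 0.46 ± 0.07 (limma, adjusted p = 5.54e-05).

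Of 31 measured genes known to be induced by estrogen in breast cells, 3 were called higher (TGFA 0.37, MYC 0.32 and MREG 0.20) and 2 lower (KCNK5 -0.34 and NRIP1 -0.22), with a median of -0.02. For comparison, 3.74% of all genes were called higher and 2.57% lower. TGFA, a ligand of the EGF receptor, and NRIP1, a corepressor of the estrogen receptor, differed without overlap of their groups. MYC lost its call without 7 and MREG without 5 of the 8 arrays taken singly, and NRIP1 with the mean of its probe sets. With 1 array left out 1 or 2 members were called higher, with 1 without 0 h replicate 2 and 2 without 0 h replicate 4. Of 9 steroid receptors ESR1 was the only one called. Glucocorticoid targets had 3 of 13 higher, the kinase SGK1 (0.52), CEBPD (0.56) and NFKBIA, and 1 lower, ANGPTL4.

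For ethanol itself the list of 11 alcohol and aldehyde dehydrogenases and related genes had 2 called higher and 0 lower. The shares over all genes were 3.74% and 2.57%, and the median of the list was -0.02. The mitochondrial aldehyde dehydrogenase ALDH1B1 measured 8.34, 8.58, 8.44 and 8.30 with vehicle and 8.01, 8.10, 8.06 and 7.66 at 0 h, a difference of 0.45 with all arrays and 0.36 without replicate 4, which held the lowest 0 h value. ALDH1A1 (0.25) lost its call without any 1 of 5 arrays (adjusted p up to 0.132, without 0 h replicate 4), which left 1 member called. Its level was low, at 4.78 with vehicle and 4.53 at 0 h. Of 8 targets of the aryl hydrocarbon receptor, CYP1B1 and TIPARP (0.34) were called higher. CYP1A1, the usual marker of that receptor, was not, at 8.37 ± 0.16 with vehicle and 8.22 ± 0.11 at 0 h (adjusted p = 0.319).

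Among the stress lists, heat shock, the unfolded protein response and NRF2 targets had few calls. Targets of p53 and genes of metallothioneins and zinc transport had more. Among all genes 3.74% were called higher and 2.57% lower. Heat shock genes had 0 of 15 higher and the cochaperone BAG3 lower (-0.25), the unfolded protein response had DNAJB9 (0.23) higher of 16, a call lost without any 1 of 3 arrays (adjusted p up to 0.0887, without 0 h replicate 1), and of 12 NRF2 targets 0 were called in either direction. Of 17 p53 targets, 4 were called higher (GADD45A, PLK2, PLK3 and TIGAR, each by 0.21 to 0.25) and 0 lower, a count that was 1 without vehicle replicate 3 and 3 without 0 h replicate 4, the gene lost there being GADD45A. PLK3 lost its call without 7 of the 8 arrays taken singly, GADD45A without 5 and TIGAR without 1. Of 9 metallothionein and zinc transport genes the exporter SLC30A1 rose by 0.42, and MT1E and MT1F by 0.14 and 0.13. The calls of MT1E and MT1F were lost without any 1 of the 8 arrays. Interferon response genes had IRF9 lower (-0.36) of 20, cholesterol synthesis had HSD17B7 lower (-0.25) of 16, ribosome biogenesis and MYC targets had RRS1 higher (0.24) of 15 (3 higher without 0 h replicate 4), and fatty acid synthesis had 0 of 10.

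Among markers of cell type, CLDN4 was called lower (-0.25) of 17 ovarian and Muellerian genes (and CD24 higher, by 0.22, without 0 h replicate 4), COL3A1 (0.35) and ACTA2 higher of 14 stromal genes, PECAM1 lower (-0.28) of 10 leukocyte and endothelial genes, and 0 of 12 hepatocyte and neural genes. Among all genes 3.74% were called higher and 2.57% lower. The summed log2 level of the stromal list was 106 to 107 with vehicle and 105 to 107 at 0 h. PECAM1 lost its call without 0 h replicate 4 (adjusted p = 0.0546) and CLDN4 without any 1 of 3 arrays (up to 0.0816, without 0 h replicate 1). In these bulk RNA samples fewer cells of a type and less RNA per cell cannot be told apart. ACTB (0.02) and GAPDH (0.00), genes commonly used as references, were not called.

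The 5 drug groups were harvested at the same 3 h. Their 20 arrays did not enter the difference of vehicle from 0 h, but they did enter its estimate of the spread. The genes were chosen by their difference from the same 0 h arrays that are used again here. Shares above those over all genes are therefore partly fixed by that choice and are no separate support. The values are given side by side and not tested. For 13 of the 15 largest rises all 20 drug arrays lay above all 4 0 h arrays, and for 13 of the 15 largest falls all 20 lay below. The exceptions were CLDN1 and CXCL8, each with 19 of 20 arrays above, HES1 with 16 of 20 below, and SOX9 with 13 of 20 below. For SOX9, 6 of the 20 arrays were above every 0 h array. Over all genes the share with all 20 above was 2.39% and with all 20 below 1.51%. Among the 447 genes called higher it was 217 (48.5%) and among the 307 called lower 119 (38.8%). Without ICI replicate 1 all 19 arrays lay above for 14 of the 15 rises and below for 13 of the 15 falls, for 254 (56.8%) of the genes called higher and 161 (52.4%) of those called lower, beside 2.98% and 2.27% of all genes. Set against the 0 h arrays other than replicate 4, those 19 lay above for all 15 rises and below for 13 falls.

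THBS1 exceeded its 0 h mean by 1.56 with vehicle, and by 1.75 with E2, 1.62 with ICI, 1.91 with ICI and E2, 2.23 with 4OHT and 2.14 with 4OHT and E2. DDIT4 was within -1.06 to -1.45 in those 5 groups, against -1.12 with vehicle. RGCC, at 0.99 with vehicle, stood at 2.60 with 4OHT and 3.25 with 4OHT and E2. SOX9, at -0.53 with vehicle, stood at 0.15 with E2 and -0.58 with ICI. Without ICI replicate 1 the ICI value was 1.58 for THBS1, -1.10 for DDIT4 and -0.58 for SOX9. The heat map of group means shows the 15 rises and 15 falls in all 6 groups.

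**Figure D4:**
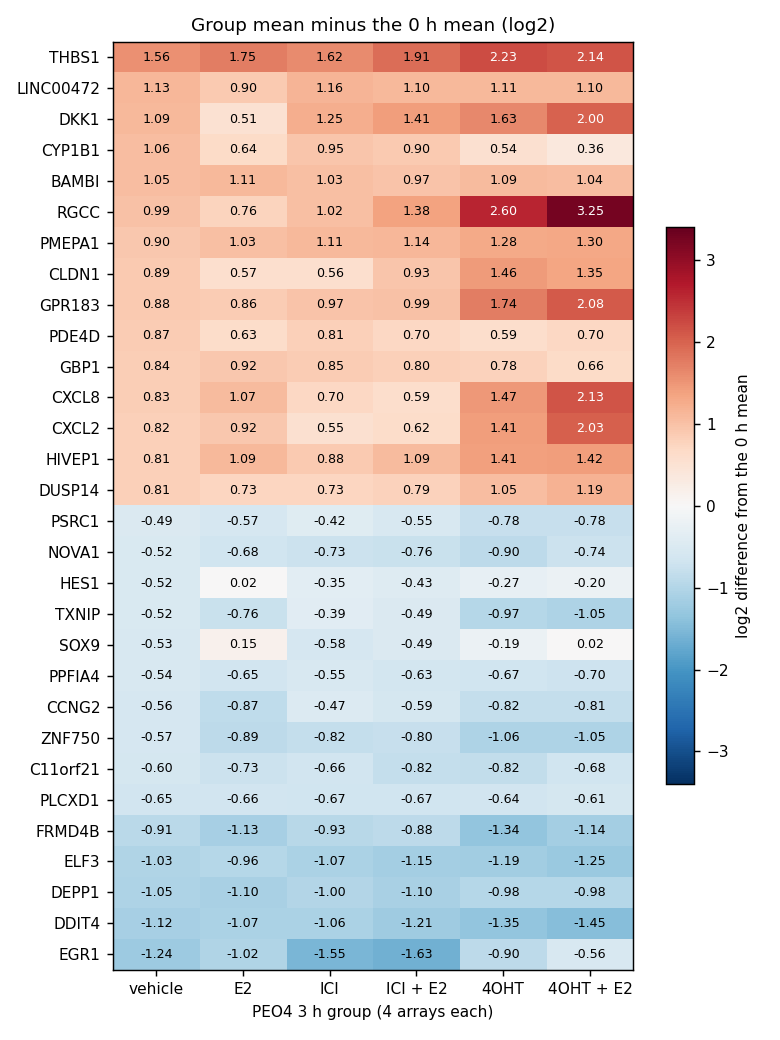
Rows are the 15 genes with the largest rises (top) and the 15 with the largest falls (bottom) with vehicle, and columns are the 6 PEO4 groups harvested at 3 h, each of 4 arrays. The number and colour of a cell give the group mean minus the 0 h mean on the log2 scale, and all cells keep the sign of the vehicle column apart from SOX9 with E2 and 4OHT with E2 and HES1 with E2.

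The same step was measured in PEO1, with 4 vehicle and 4 0 h arrays, also after 3 days without hormone. The titles do not say whether the lines were cultured and arrayed together. A difference between lines therefore cannot be told apart from one between experiments. In PEO1 889 genes (7.43%) were called, 693 (5.79%) higher and 196 (1.64%) lower, and 585 without PEO1 vehicle replicate C. Called higher in both lines were 164 genes, 36.7% of the PEO4 and 23.7% of the PEO1 calls, and called lower in both were 40, 13.0% and 20.4%. The clock gene PER2 rose by 0.49 in PEO4 and 0.47 in PEO1, and ESR1 fell by 0.28 on the log2 scale in PEO4, against -0.22 in PEO1. VEGFA (-0.39 and -0.41), HES1 (-0.52 and -0.44) and SLC30A1 (0.42 and 0.35) were also called in both, and RGCC was at 0.99 and 0.81. Called in opposite directions were 7 genes higher in PEO4 and lower in PEO1, and 7 the other way.

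A test of the difference itself, in 1 limma fit over 56 arrays, called 286 genes (2.39%), 123 (1.03%) with a higher response in PEO4 and 163 (1.36%) with a lower one. Of these, 182 were among the 754 PEO4 calls. THBS1 differed by 1.50 ± 0.18 (adjusted p = 6.59e-08). In PEO1 it measured 11.86, 11.68, 12.03 and 11.87 with vehicle and 11.48, 11.76, 12.00 and 11.92 at 0 h, so its groups overlapped there at a high level. DKK1 differed by 1.05 ± 0.11, and its PEO1 response was 0.04. CYP1B1 differed by 1.15 ± 0.16, with a PEO1 response of -0.09. That negative sign rested on PEO1 0 h replicate A, at 9.98, beside 9.11, 8.99 and 8.92 on the other 0 h arrays. The PEO1 vehicle arrays measured 9.10, 9.17, 9.28 and 9.08. The test between lines was not repeated without a PEO1 array.

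CXCL2 (1.02), CXCL1 (0.97) and GPR183 (1.00) had no called response in PEO1. GPR183 lay at 2.91 to 3.25 on the PEO1 arrays, near the foot of the scale, where a change could hardly be seen. The ERK phosphatase gene DUSP4 (1.07) and FOSL1 (0.96) were called higher in PEO4 and lower in PEO1, where they changed by -0.34 and -0.50. On the lower side DDIT4 differed by -1.15 ± 0.10 (limma, adjusted p = 4.24e-11) with a PEO1 response of 0.03, and EGR1 by -1.07 ± 0.21 with one of -0.16. FOS differed by -0.78, with -0.42 in PEO4 and 0.36 in PEO1, the second of which was not called.

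GREB1 differed by -1.01 ± 0.16 (limma, adjusted p = 4.71e-05), with -0.41 in PEO4 and a called rise of 0.60 ± 0.09 in PEO1. The cerebellin gene CBLN1 differed by -1.13, the transcription factor BCL11A by -0.94, PFKFB3 by -0.77 and TMEM100 by -0.75. All were called higher in PEO1, by 1.01, 0.58, 0.51 and 0.56. BCL11A and PFKFB3 were called lower in PEO4, and CBLN1 and TMEM100 were not called there. CBLN1 was low in PEO4, at 4.59 with vehicle and 4.70 at 0 h. Without PEO4 0 h replicate 4 the difference between lines was called for 213 genes, 196 of them shared with the 286, and all 16 genes named here kept it. Levels were not set against each other across lines, since the titles do not say whether the lines were arrayed together.

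**Figure D5:**
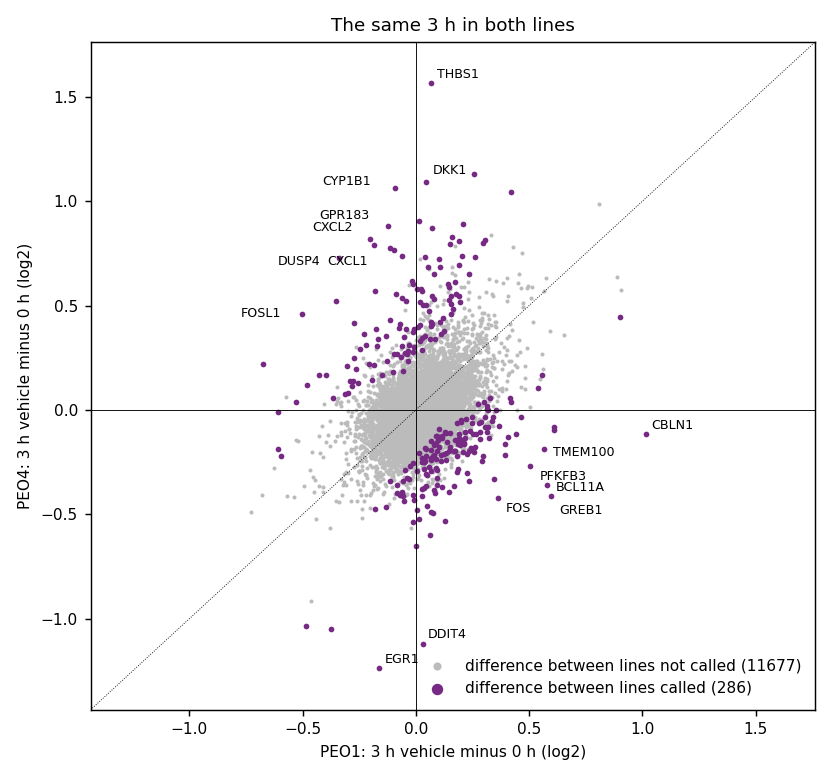
Each point is 1 of 11963 genes, with the log2 difference of 3 h vehicle minus 0 h in PEO1 on the horizontal axis and in PEO4 on the vertical axis. Purple points are the 286 genes whose difference differed between the lines, the 16 named ones are labelled, and the dotted line marks equal responses.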

How the data were processed

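The deposited table holds log2 expression values made from Affymetrix arrays by the authors with RMA, per the submitters' processing notes, while the RMA version is not given in the sources used here. RNA came from a spin-column kit, per the labels' protocols. Depth has no meaning for arrays, so the number of arrays limits precision. Of 22277 probe sets, 62 controls were set aside, and 1043 with several symbols and 2108 with none were not tested. Symbols came from the array's annotation, with 19052 of 19064 matched to RefSeq gene IDs. Each of 11963 genes was represented by its brightest probe set on average over 56 arrays.

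A limma model (version 3.58.1, R 4.3.3) with 1 mean per group was fitted to the 28 PEO4 arrays, with 21 residual degrees of freedom, and vehicle was set against 0 h. Adjusted p-values are Benjamini-Hochberg values from limma over all genes, called under 0.05. The difference between lines came from a fit over 56 arrays with 42 residual degrees of freedom. The script was tested on simulated data. Alternatives were the variance options, probe set rule, filter on dim genes, quantile normalization, replicate block, array weights, the ACTB 3′ minus 5′ value as a covariate, only the compared groups, and arrays left out.

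Named were the 15 called genes with the largest difference in each direction, up to 4 members of each of 30 lists by adjusted p, ESR1, PGR, GREB1, IGFBP3, ACTB and GAPDH, and the 8 largest differences between lines in each direction. Further called members of a list were named to complete its count, after their values were seen. The arrays and lists were chosen with earlier results of these data known. Some lists share members, such as MYC, CCN1, CCN2, SRF, NFKBIA, ANGPTL4 and ACTA2. Promoter sequences are RefSeq's (GRCh38.p14).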

Additional observations from a re-analysis of the deposited data

Results flagged for a closer look

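In 12 of 204 sets of 4 arrays looked at, 1 array stood far from the other 3, where chance gives about 1 in 20. Of these, 6 were 0 h replicate 4, with the ACTB 3′ minus 5′ value of 2.28 and the GAPDH value of 0.860, and with the log2 levels of PLCXD1 (9.64), C11orf21 (7.67), KDM3A (10.43) and TIPARP (10.73). On vehicle replicate 2 SPRY4 (8.39), MXI1 (11.13), MREG (10.59) and IGFBP3 (9.87) stood apart, as did VLDLR (5.88) on replicate 3 and NRIP1 (10.68) on replicate 1.

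The 16 genes below were flagged because the change with vehicle differed between PEO4 and PEO1 by the test of that difference in limma. The PEO4 change minus the PEO1 change was 1.50 for THBS1, 1.15 for CYP1B1, 1.07 for DUSP4, 1.05 for DKK1, 1.02 for CXCL2, 1.00 for GPR183, 0.97 for CXCL1 and 0.96 for FOSL1. It was -1.15 for DDIT4, -1.13 for CBLN1, -1.07 for EGR1, -1.01 for GREB1, -0.94 for BCL11A, -0.78 for FOS, -0.77 for PFKFB3 and -0.75 for TMEM100.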

How the results depend on the processing

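The 754 calls in PEO4 were 1617 with array weights (921 higher, 696 lower). With the ACTB 3′ minus 5′ value as a covariate 707 genes were called higher, and without 0 h replicate 4 only 203 were called lower. The other alternatives gave 603 to 1063 calls in all. Among them, leaving out ICI replicate 1 alone, a choice made after seeing the data, gave 1019 calls in PEO4 and 352 between lines. Leaving out 1 of the 8 arrays gave 552 to 709 calls, 324 to 455 higher and 203 to 312 lower, and in PEO1 585 to 874. The difference between lines was called for 551 genes with array weights, and for 213 to 298 with 1 PEO4 array left out. The share of calls that were higher was 59.3%, and 69.1% without 0 h replicate 4. With the replicate number as a block 808 genes were called in PEO4 (458 higher, 350 lower), 881 in PEO1 and 301 between lines. Same-numbered PEO4 arrays correlated in their deviations at r = 0.06, 0.03, -0.15 and 0.03, and not every array correlated best with its own number, so the numbers were not taken to pair arrays. Of 130 PEO4 genes followed, 45 lost the call or turned under at least 1 alternative. PGR was never called, and its difference was -0.020 to 0.096 with 1 array left out, the negative value without vehicle replicate 1. The 16 genes named for the difference between lines kept it under all alternatives run, none of which left out a PEO1 array. RMA values hold no background calls, so low levels have no detection limit.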
